A study of Mus musculus with 12 samples.

Results

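The rate at which the basolateral amygdala was stimulated was the only stated difference between the STET_S200 and STET_S100 slices, and the transcriptomes of ventral CA1 after both rates are compared here. The comparison used 6 of the 12 libraries of the study, 3 for each rate, and took in every gene with enough reads. The donors of all slices were C57BL/6J males, wild type, 5 to 7 weeks old. Horizontal slices of 400 µm rested for at least 3 h, each mouse gave 4 slices, 1 for each group of the study, and 6 slices were pooled into a library. Tissue was taken 30 min after stimulation, as a piece of ventral CA1 of 1 mm2 cut out at the electrodes. Both groups received the same strong tetanization (STET) of the Schaffer collateral inputs, 3 trains of 100 pulses at 100 Hz. STET_S100 slices also received amygdala stimulation at 100 Hz and STET_S200 slices at 200 Hz. The sample description of STET_S200 names 200 Hz and then adds, in brackets, a rate of 100 Hz, so the labels contradict themselves on the quantity compared, and the groups are called here by their labels. The other 2 groups, Control (basal stimulation) and STET (tetanization without the amygdala), serve only as reference levels. A library is a pool of slices from several mice. Because mice contributed to all groups, libraries of different groups are not independent animals, and p-values measure the spread between pools.

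The basolateral amygdala sends glutamatergic axons to ventral CA1, the part of the hippocampus tied to anxiety and emotional memory. Strong tetanization of CA1 synapses induces late long-term potentiation, the form of synaptic strengthening that needs new transcription and protein synthesis. Its first transcriptional wave is made of immediate early genes, which neurons switch on within minutes of calcium entry without making new protein first, and amygdala activity can prolong or modulate such plasticity in the hippocampus.

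The 6 libraries held 36.8 to 49.8 M counted reads. Markers of CA1 pyramidal cells summed to 1706 to 2019 CPM (counts scaled to a common library size) in them, and Fibcd1, a CA1-enriched surface protein gene, was at 350 to 437 CPM. Tissue other than CA1 differed between libraries. Ttr, which encodes transthyretin and is made by the choroid plexus, was at 1841, 2798 and 12.2 CPM in STET_S100 replicates 1 to 3, and at 5.14, 1.73 and 40.6 CPM in STET_S200. STET_S100 replicates 1 and 2 were thus rich in Ttr, and replicate 3 lay within the range of the STET_S200 libraries. Control libraries were at 183 to 1167 CPM and STET libraries at 254 to 2243 CPM. All of these reference libraries lay above STET_S100 replicate 3 and above every STET_S200 library. Rich and poor in Ttr therefore refer below to the 6 compared libraries alone. Genes whose log2 CPM followed that of Ttr over all 12 libraries, with a Pearson correlation of at least 0.8, were set aside: 238 of the 19492 genes tested, which left 19254. At the edge of that rule, Chdh was just inside (r = 0.8004) and Adipor2 just outside (r = 0.7997). All 238 had lower fitted levels in STET_S200, with a median log2 difference of -1.09, so the rule removed only genes that lay lower in STET_S200. Fabp4, an adipocyte gene, exceeded 1 CPM in STET_S100 replicate 1 and STET_S200 replicates 2 and 3 (7.08 to 7.67 CPM) and was at 0.05 to 0.08 CPM in the other 3. Differences within the 3 libraries with Fabp4 and within the 3 without it are given below for some results. This split is by a measured transcript, and the labels name no batch.

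No gene passed the test between the 2 rates. Of the 19254 genes, 0 passed an adjusted p of 0.05 (0% called) in edgeR's quasi-likelihood test with Benjamini-Hochberg adjustment, and the smallest adjusted p was 0.956. At an unadjusted p under 0.05 the same test had 385 genes higher in STET_S200 (2% of those tested) and 464 lower (2.41%), together 849 (4.41%); with the genes that follow Ttr included, 5.2% of the 19492 were at that level. DESeq2 and limma-voom also gave 0 after the Ttr-following genes were set aside, with 719 and 829 genes at an unadjusted p under 0.05. The smallest adjusted p among genes kept was 0.0612 in DESeq2 and 0.968 in limma-voom, so the distance to the threshold differed between tests. Before they were set aside, DESeq2 had 5 calls, all lower and all following Ttr: Ttr itself, Clic6, Tmem72, Wdr86 and Kcnj13.

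The data also bounded how large a difference could be. Among 13312 genes with a mean log2 CPM of at least 1, the median absolute log2 difference was 0.048 and its median standard error was 0.07. For 95.1% of them the 95% confidence interval of the difference lay within 1.5-fold in either direction, and for 99.0% within 2-fold. Over all 19254 genes, including weakly expressed ones, 69.5% were bounded within 1.5-fold. Of the 13312 genes, 59 had a fitted difference of 1.5-fold or more, 52 of them lower and 7 higher in STET_S200. In the plot of differences against expression level, the scatter narrows as expression rises. The points far below 0 include genes that follow Ttr, such as Kcnj13 (-7.13). They also include genes kept, such as Chrnb4 (-2.13) and Prrg4 (-1.95), so setting genes aside did not remove every large lower difference.

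**Figure D1:**
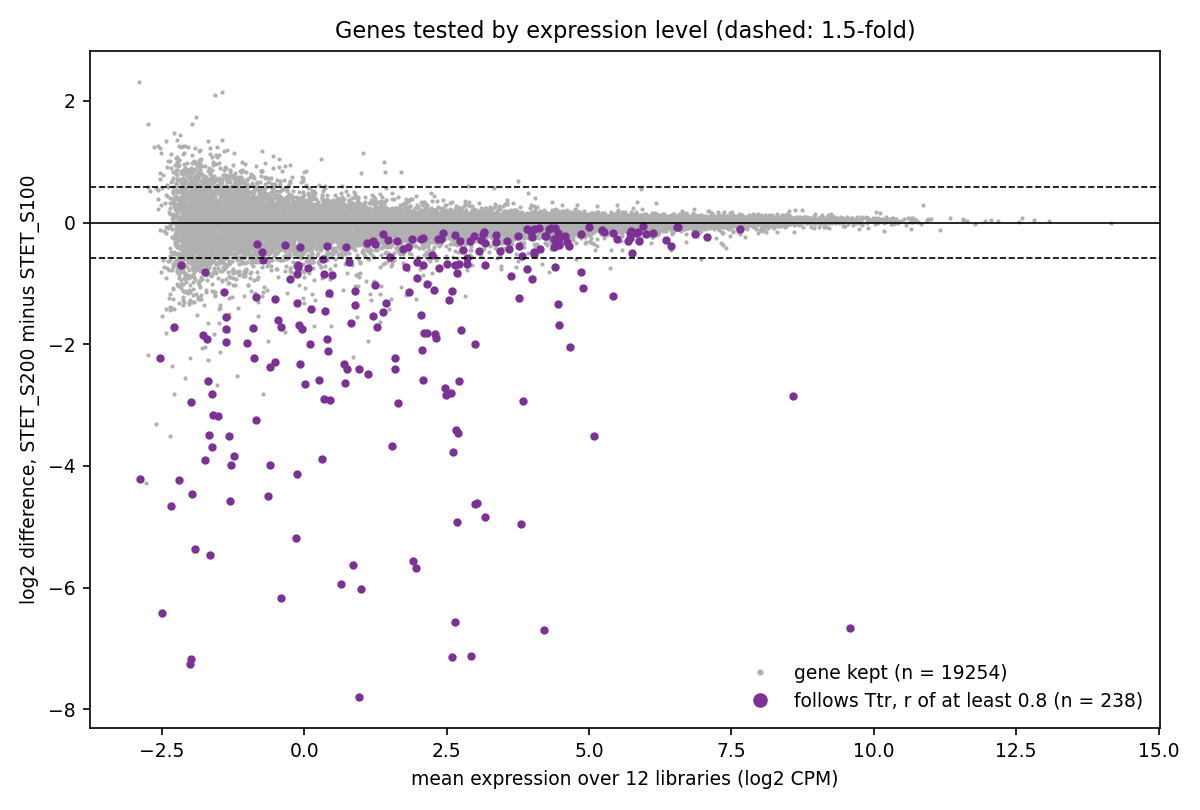
Each point is 1 of the 19492 genes tested: the horizontal axis is its mean expression over 12 libraries (log2 CPM) and the vertical axis its log2 difference between STET_S200 and STET_S100, with dashed lines at 1.5-fold. The 238 genes that follow Ttr (purple) all lie below 0, and the 19254 genes kept (grey) centre on a median log2 difference of 0.003.

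Libraries of different groups were about as close to each other as libraries of 1 group. The median absolute log2 difference between 2 libraries was 0.07 to 0.09 for the 3 pairs within STET_S100, 0.08 to 0.10 for the 3 pairs within STET_S200, and 0.07 to 0.11 for the 9 pairs across groups. The closest of the 15 pairs were STET_S100 replicate 3 with STET_S200 replicate 2 (0.0678) and with STET_S200 replicate 1 (0.0683), both across groups. No 2 libraries agreed within counting noise.

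Without a test, 891 genes (4.63%) had all 3 STET_S200 libraries above all 3 STET_S100 libraries, and 875 (4.54%) had them all below, together 9.17%. With the genes that follow Ttr included, the shares over 19492 genes were 4.57% above and 4.77% below. These shares are the background for the counts of separated genes given for gene groups below.

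No immediate early gene passed the test, and the STET_S100 libraries differed widely among themselves. Of 29 rapid immediate early genes tested, 0 passed the test and 0 had separated groups. In STET_S200 8 had higher and 21 lower fitted levels, with a median log2 difference of -0.09, against 0.003 over all genes kept. The interval lay within 1.5-fold for 21 of the 29. The list was one of 50 drawn up with results of these data known, so its direction is a description.

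Arc encodes a synaptic protein that controls AMPA receptor endocytosis and is a standard reporter of recent synaptic activity. It stood at 170, 399 and 241 CPM in STET_S100 and at 277, 193 and 215 CPM in STET_S200, with 80.5 to 115.5 CPM in Control and 191 to 297 CPM in STET. The highest and the lowest of the 6 values were both STET_S100 libraries, so the STET_S200 values lay inside their range. The log2 difference was -0.24 ± 0.32 (SE), an interval from 0.51-fold to 1.42-fold.

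Npas4, a neuron-specific transcription factor induced by calcium entry, had the same order of STET_S100 libraries: 114, 326 and 177 CPM, against 195, 113 and 178 CPM in STET_S200. The values overlapped throughout, and the difference was -0.34 ± 0.39. Both groups lay above Control, where Npas4 was at 54.7 to 75.3 CPM.

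Fos, the AP-1 subunit most used to mark active neurons, was at 171, 320 and 261 CPM after the lower rate and at 281, 217 and 244 CPM after the higher. Its means were 250 and 247 CPM, and the log2 difference was -0.02 ± 0.23. Fosb and Junb, also AP-1 subunits, differed by -0.15 ± 0.14 and -0.17 ± 0.18.

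Egr1, a zinc finger factor required for late potentiation, was at 312, 538 and 456 CPM in STET_S100 and 422, 336 and 415 CPM in STET_S200 (-0.16 ± 0.20). Again the STET_S100 libraries spanned the STET_S200 values. Its relatives Egr2 and Egr4 differed by 0.03 ± 0.25 and -0.07 ± 0.18. The orphan nuclear receptors Nr4a1 and Nr4a2 differed by -0.25 ± 0.25 and -0.08 ± 0.07. Btg2, an antiproliferative early gene, was at 49.6, 103 and 62.1 CPM in STET_S100 and 72.6, 53.7 and 49.5 CPM in STET_S200 (-0.28 ± 0.29). Dusp1, which switches off MAP kinases, differed by -0.11 ± 0.14, and Gadd45g, a growth arrest and DNA repair gene, by -0.05 ± 0.14.

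**Figure D2:**
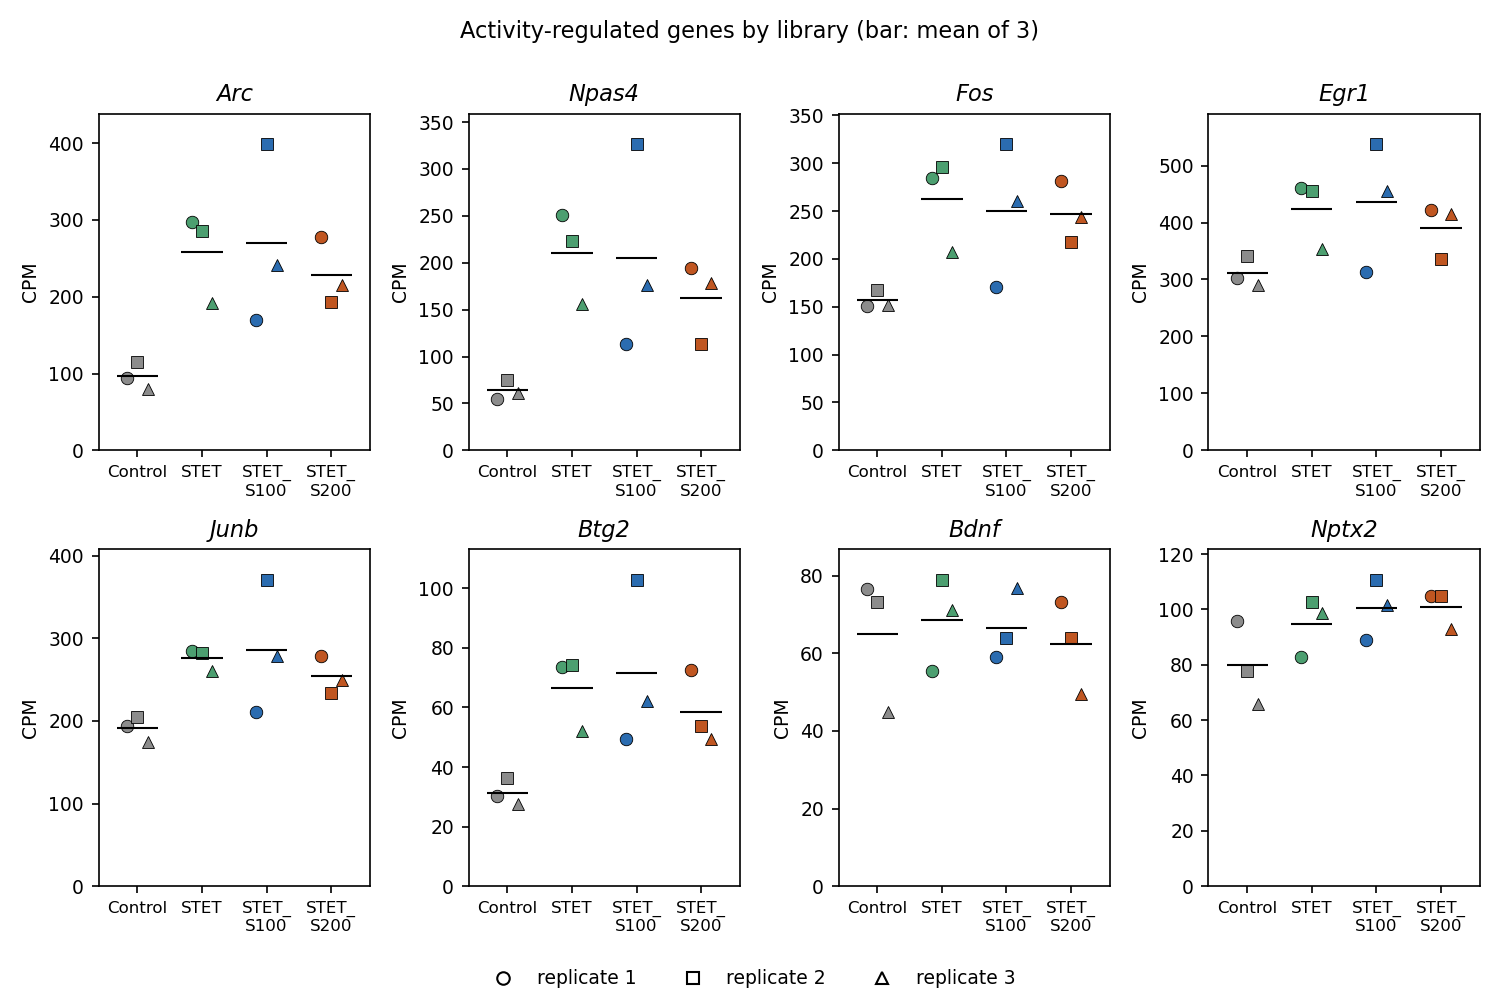
CPM (vertical axis) of 8 activity-regulated genes in each of the 12 libraries by group; bars are means of 3 and symbols give the replicate number. In the panels of Arc, Npas4, Fos, Egr1, Junb and Btg2, STET_S100 replicate 2 is the highest of the 6 amygdala-stimulated libraries and STET_S100 replicate 1 among the lowest; Bdnf and Nptx2 overlap between all groups.

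The extremes of these genes lay mostly in 2 STET_S100 libraries. Among the 6 libraries, STET_S100 replicate 2 had the highest value of 19 of the 29 rapid genes (65.5%, against 19.4% of all genes kept), and STET_S100 replicate 1 the lowest of 16 (55.2%, against 14.9%). Replicate 1 carried the Fabp4 transcripts and replicate 2 did not. Within the libraries with Fabp4, 23 of the 29 genes were higher in STET_S200 and Arc differed by 0.26. Within those without Fabp4, 6 of 29 were higher and Arc differed by -0.16. Leaving out STET_S100 replicate 2 turned the difference of Arc to 0.15 and the list median to 0.06, and leaving out replicate 1 moved Arc to -0.49. Among the single removals, only that of STET_S100 replicate 2 turned the sign of Arc or of the list median. Both signs also turned with a choroid plexus score as covariate, and that of Arc with log2 CPM of Ttr as covariate. The direction of the immediate early genes between the 2 rates therefore depended on 1 library and on the covariates. Whether Fabp4 and the other transcripts of peripheral tissue found in the same libraries bear on this direction was not tested.

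Genes of the later, protein synthesis-dependent wave and the secreted plasticity factors had small differences as well. Of 28 delayed activity-regulated genes, 0 passed the test and 0 had separated groups, with 10 higher, 18 lower and a median of -0.02; 25 were bounded within 1.5-fold. Bdnf, the neurotrophin most closely tied to late potentiation, was at 59.0, 63.9 and 76.9 CPM in STET_S100 and 73.3, 64.0 and 49.5 CPM in STET_S200. The highest and lowest of these values came from replicate 3 of each group, and the difference was -0.09 ± 0.24. Nptx2, a secreted pentraxin that clusters AMPA receptors, differed by 0.01 ± 0.14, Homer1, a postsynaptic scaffold with an activity-induced short form, by -0.01 ± 0.08, and Inhba, the activin subunit, by -0.07 ± 0.41. Ptgs2, the inducible cyclooxygenase, was at 76.5, 111 and 125 CPM in STET_S100 and 90.9, 72.6 and 63.9 CPM in STET_S200 (-0.45 ± 0.30), with 1 STET_S100 library inside the STET_S200 range. Of 18 MAP kinase feedback genes, Dusp2, an early-induced nuclear phosphatase, was separated and higher (4.03, 3.69 and 4.53 against 6.33, 5.49 and 4.78 CPM). It was the only separated member, 1 of 18, against 4.63% of all genes kept. Control (3.53 to 5.07 CPM) and STET libraries (4.37 to 5.79 CPM) overlapped both groups.

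Several inflammatory genes had higher values in STET_S200, none past the threshold. Of 32 chemokines and inflammatory genes tested, 0 passed the test; 23 had higher and 9 lower fitted levels in STET_S200, with a median of 0.08. At an unadjusted p under 0.05 in edgeR 6 were higher and 0 lower, against 2% and 2.41% of all genes kept, and 3 had separated groups, all higher, against 4.63% of all genes kept. These counts carry no test of the list.

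Tnfaip3 encodes A20, a deubiquitinase that NF-kappaB induces and that restrains it. It was at 36.5, 41.8 and 42.5 CPM in STET_S100 and 49.8, 53.9 and 44.5 CPM in STET_S200. Every STET_S200 library lay above every STET_S100 library, by the least for STET_S200 replicate 3. The log2 difference was 0.30 ± 0.07, with an unadjusted p of 0.000703 in edgeR and the adjusted p of 0.956. Control libraries were at 42.3 to 46.9 CPM and STET libraries at 44.1 to 47.0 CPM, and both overlapped STET_S200. Every STET library lay above every STET_S100 library, and Control met STET_S100 only at its lower end.

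Nfkbia, the inhibitor of NF-kappaB that is also its target gene, was at 56.2, 69.9 and 63.6 CPM in STET_S100 and 80.6, 83.0 and 73.0 CPM in STET_S200 (0.32 ± 0.10). Il1a, which encodes interleukin 1 alpha, was at 41.0, 51.3 and 45.6 CPM against 74.3, 72.6 and 55.6 CPM (0.56 ± 0.19). The groups did not overlap for either gene, and STET_S200 replicate 3 was again the nearest to STET_S100. Control libraries reached from 45.6 to 76.8 CPM for Il1a and STET libraries from 62.6 to 69.4 CPM, so the STET_S200 values lay within the range of the groups without amygdala stimulation, and the STET_S100 values at its lower end or just below.

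Cxcl2, a neutrophil-attracting chemokine, was at 15.6, 20.5 and 15.5 CPM in STET_S100 and 23.4, 22.5 and 19.4 CPM in STET_S200; STET_S100 replicate 2 and STET_S200 replicate 3 overlapped (0.34 ± 0.11). Tnfaip2, a TNF-induced gene, stood at 11.3, 12.1 and 13 CPM against 18.1, 19.1 and 13.9 CPM (0.49 ± 0.12). Cd83, an activation marker of immune cells, stood at 49.5, 46.6 and 49.1 CPM against 62.2, 58.2 and 51.5 CPM (0.24 ± 0.07). Control and STET libraries together ran from 14.2 to 18.1 CPM for Tnfaip2 and from 49.9 to 61.9 CPM for Cd83. For both genes they all lay above the STET_S100 libraries, and most lay within the STET_S200 range. Tnfaip2 and Cd83 were separated and were not on the list; the rule for the lowest unadjusted p named them. The list's members ranged from -0.47 for Ccl5, a T cell-attracting chemokine, to 0.68 for Cxcl10, an interferon-induced chemokine, and both of these overlapped between the groups. Il1b, which encodes interleukin 1 beta, differed by 0.56 ± 0.29, and Nfkb1, an NF-kappaB subunit gene, by -0.03 ± 0.07.

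**Figure D3:**
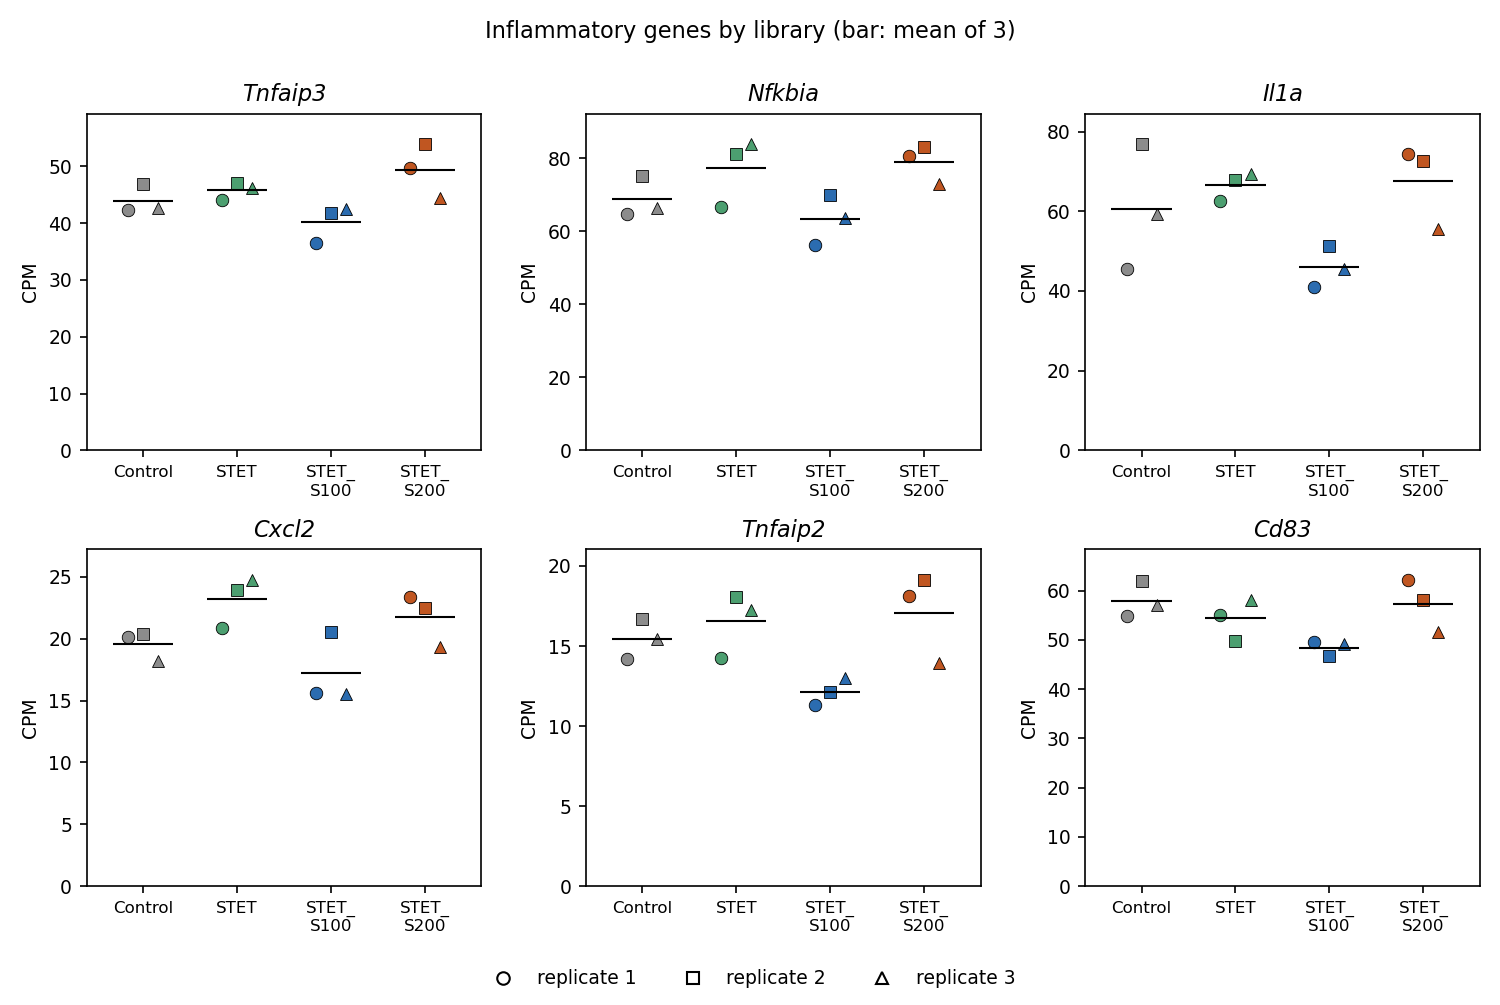
CPM (vertical axis) of 6 inflammatory genes in each of the 12 libraries by group; bars are means of 3 and symbols give the replicate number. Except for Cxcl2, every STET_S200 library lies above every STET_S100 library, with STET_S200 replicate 3 the lowest of its group, and Control and STET libraries reach into the range of STET_S200.

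For Tnfaip3, Nfkbia and Il1a the groups did not overlap, so the choice of libraries could change the size of the difference but not its sign. In the libraries with Fabp4, Tnfaip3 differed by 0.42, Nfkbia by 0.47 and Il1a by 0.63; in those without, by 0.24, 0.27 and 0.62. Against STET_S100 replicate 3 alone, the library poor in Ttr, the differences were 0.21, 0.31 and 0.55. Of the 32 listed genes, 27 were higher in the libraries with Fabp4, 22 in those without, and 18 against STET_S100 replicate 3, where 48.2% of all genes kept were higher. Microglia are a main source of these transcripts in brain. Of 18 microglial markers, 5 were higher and 13 lower, with a median of -0.06, 1 of 18 higher within the libraries with Fabp4 and 15 of 18 within those without. STET_S100 replicate 1 had the highest value of 12 of these 18, and STET_S200 replicate 2 the lowest of 10. Their summed level was 373 to 425 CPM in STET_S100 and 351 to 410 CPM in STET_S200. In tissue of mixed cells, fewer cells of a type and less RNA per cell cannot be told apart. P2ry13, a microglial purine receptor gene, was separated and higher (0.86, 0.79 and 0.89 against 1.55, 1.07 and 1.26 CPM), and Aif1, which encodes the microglial protein Iba1, was separated and lower. Interferon-stimulated genes, another immune programme, had 7 of 26 higher and 19 lower, with none separated and a median of -0.07; STET_S200 replicate 3 was the lowest library for 17 of them.

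Genes of synaptic transmission lay slightly higher in STET_S200, by differences of a few percent, where 51.3% of all genes kept were higher. AMPA receptor subunits and auxiliary proteins, which carry fast excitation, had 16 of 19 members higher and a median of 0.05. Gria1, the GluA1 subunit inserted during potentiation, was at 940, 935 and 953 CPM in STET_S100 and 977, 1000 and 1008 CPM in STET_S200 (0.08 ± 0.04). The groups did not overlap, and Control libraries, at 901 to 1001 CPM, covered most of both. Gria3, another AMPA subunit, overlapped (208, 215 and 219 against 218, 238 and 247 CPM; 0.13 ± 0.04).

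Of 7 NMDA receptor subunits, the calcium-permeable receptors that trigger potentiation, 2 were separated and higher. Grin2b was at 806, 834 and 847 CPM against 849, 894 and 908 CPM (0.09 ± 0.04), and Grin3a, whose product lowers calcium flow through the receptor, was at 104, 103 and 112 CPM against 119, 118 and 133 CPM (0.22 ± 0.07). STET_S200 replicate 3 held the highest value of both. The obligatory subunit and the others overlapped between the groups, and all 7 were bounded within 1.5-fold.

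Other synaptic groups leaned the same way without passing the test. GABA-A receptor subunits had 11 of 13 higher (median 0.04), presynaptic release genes 25 of 33 (0.04), postsynaptic scaffolds 15 of 21 (0.03), and plasticity kinases and phosphatases 21 of 32 (0.03). Dlg2 and Dlg4, the PSD-93 and PSD-95 scaffolds, were separated and higher, as were Prkcz and Prkcb, protein kinase C isoforms implicated in maintaining potentiation. Prkcb was at 518, 516 and 543 CPM against 550, 547 and 620 CPM (0.12 ± 0.05). Of 7 kainate receptor genes, Grik4 was separated and lower, though STET_S100 replicate 1 and STET_S200 replicate 1 were both at 38.1 CPM.

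The synaptic groups differed in how they compared with the STET_S100 library poor in Ttr. STET_S200 replicate 3 had the highest of the 6 values for 13 of the 19 AMPA genes and 20 of the 33 presynaptic genes, against 21.2% of all genes kept. Against STET_S100 replicate 3 alone, 13 of 19 AMPA genes, 6 of 13 GABA-A subunits and 8 of 33 presynaptic genes were higher, and the medians were 0.04, -0.03 and -0.02. Of the NMDA receptor subunits 5 of 7 were higher against it, with a median of 0.05, where the median over all 6 libraries was 0.004. A part of the Ttr-rich tissue of STET_S100 replicates 1 and 2 in these lists was not tested. Within the libraries with Fabp4, 17 of 19 AMPA genes and 27 of 33 presynaptic genes were higher (medians 0.08 and 0.10). Within those without Fabp4, 13 of 19 and 18 of 33 were higher (medians 0.03 and 0.003). GABA-A subunits had 11 of 13 and 13 of 13 higher, with a median of 0.04 in both sets. Of all genes kept, 51.2% and 51.3% were higher in the 2 sets.

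Neuropeptides and receptors, which modulate transmission, had 18 of 27 higher (median 0.05) and 3 separated. Grp, gastrin-releasing peptide, was at 56.9, 54.7 and 57.6 CPM in STET_S100 and 65.7, 65.8 and 65.3 CPM in STET_S200 (0.22 ± 0.07). Both sets of 3 values were tight and apart, yet STET libraries spanned both, from 55.4 to 67.8 CPM. Tac1, the substance P precursor, was at 9.17, 8.40 and 10.4 against 10.7, 11.1 and 11.9 CPM (0.27 ± 0.09), and Npy1r, the neuropeptide Y receptor Y1, was separated by less (0.10 ± 0.05). Sstr3, a somatostatin receptor of neuronal cilia, was at 34.7, 36.6 and 34.6 against 38.4, 37.8 and 34.3 CPM (0.06 ± 0.06), with overlap.

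Among modulatory receptors, Adra1d, Chrna7 and Htr1a (an adrenergic, a nicotinic and a serotonin receptor) were separated and higher. Chrna7 was at 29.7, 28.8 and 29.2 CPM against 31.2, 33.3 and 32.8 CPM (0.15 ± 0.05). Chrnb4, a nicotinic subunit, differed by -2.13 ± 0.78, and its values of 0.88, 0.74 and 0.12 against 0.10, 0.09 and 0.22 CPM were high in the 2 Ttr-rich libraries alone. Ion channels had differences of the same size as the synaptic groups. Of 28 potassium channels 17 were higher, and of 27 calcium and sodium channels 19, both with a median of 0.03 and with 27 members bounded within 1.5-fold. Kcna2 and Kcnq3, potassium channel genes, and Cacna1e and Cacnb4, calcium channel genes, were separated and higher, by 0.10, 0.10, 0.09 and 0.07. The median of the potassium channels turned to -0.01 without both Ttr-rich libraries and that of the calcium and sodium channels to -0.03 in the libraries without Fabp4.

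**Figure D4:**
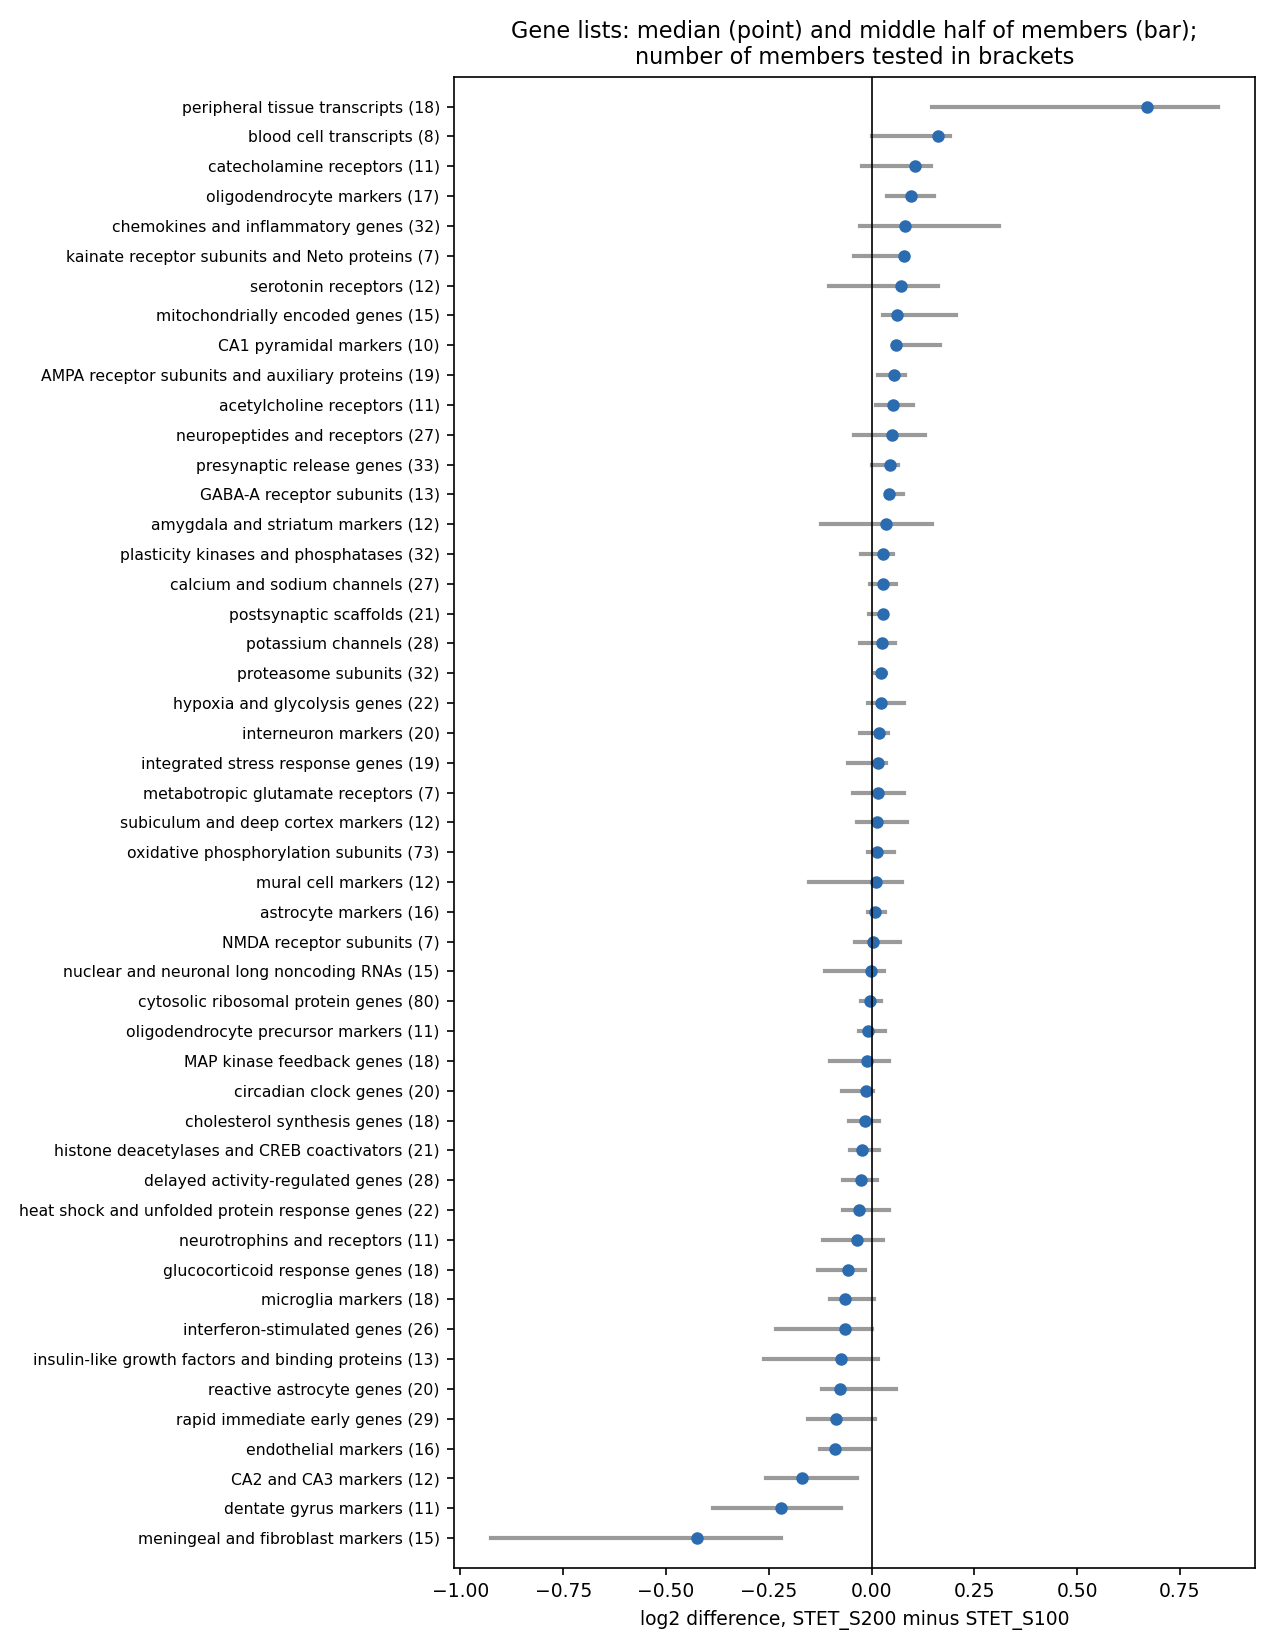
Median (point) and interquartile range (bar) of the log2 difference between STET_S200 and STET_S100 for 49 gene lists, with the number of members tested in brackets; the horizontal axis is log2. Most medians lie within 0.1 of 0; meningeal, dentate gyrus and CA2 and CA3 markers reach furthest below and transcripts of peripheral tissue furthest above, and the choroid plexus list (median -4.22) is left off the scale.

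Markers of the hippocampal subfields lay on opposite sides of 0. CA1 pyramidal markers had 9 of 10 higher, with a median of 0.06, and 3 separated, against 4.63% of all genes kept. Within the libraries with Fabp4 9 of 10 were higher (median 0.14), and within those without, 6 of 10 (0.02). STET_S200 replicates 2 and 3, both with Fabp4, held the highest value of 5 markers each. Fibcd1 was at 350, 360 and 355 CPM in STET_S100 and 371, 437 and 413 CPM in STET_S200 (0.20 ± 0.12). Mpped1 (327, 332 and 335 against 340, 360 and 391 CPM) and Neurod2, a neuronal transcription factor (143, 144 and 139 against 147, 152 and 146 CPM), were separated too. CA2 and CA3 markers had 9 of 12 lower, 4 of them separated, with a median of -0.17. The median was -0.08 within the libraries without Fabp4, where 5 of 12 were higher, and -0.04 with a choroid plexus score as covariate. Amigo2, an adhesion protein gene of CA2 and CA3, was at 12.2, 11.2 and 13.9 against 10.1, 8.24 and 9.62 CPM (-0.42 ± 0.20), and Necab2, a calcium-binding protein gene of CA2, at 81.2, 80.8 and 84.6 against 75.7, 75.7 and 76.2 CPM (-0.12 ± 0.06).

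Dentate gyrus markers had 10 of 11 lower and a median of -0.22, a direction that turned with the libraries used. STET_S200 replicate 3 had the lowest value of all 11 among the 6 libraries. Summed, the markers stood at 474, 453 and 393 CPM in STET_S100 and 510, 436 and 307 CPM in STET_S200. Within the libraries without Fabp4, 10 of 11 were higher in STET_S200, and within those with Fabp4, 0 of 11. Against STET_S100 replicate 3 alone 6 of 11 were higher, with a median of 0.04. The median was also above 0 without STET_S200 replicate 3, without both Ttr-rich libraries, and with Ttr or the choroid score as covariate. Only Pdzd2 was separated (51.2, 57.2 and 48.8 against 45.6, 45.4 and 35.8 CPM). Oligodendrocyte markers had 16 of 17 higher (median 0.10), and the same library was the highest for 14 of them. Without that library the median of the oligodendrocyte markers was -0.01. Whether the dissected areas differed was not tested. Markers of amygdala and striatum had 6 of 12 higher and summed to 604 to 637 CPM in STET_S100 and 621 to 662 CPM in STET_S200.

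The 10 genes with the lowest unadjusted p in each direction, among expressed genes that did not follow Ttr, are described as the nearest to a difference, and none passed. On the higher side, beside Tnfaip3, Tnfaip2 and Cd83, they were Gm12408, Dubr, Cdh11, Tm9sf2, Zfp449, Tmem150c and Zdhhc2. Over these 10 the r with Ttr ran from -0.81 (Tm9sf2) to -0.15 (Dubr). The Ttr rule used positive r alone, and 70 genes with r of -0.8 or below were kept. For kept genes higher at an unadjusted p under 0.05 in edgeR the median r was -0.44. It was 0.56 for the lower ones and -0.03 over all genes kept. Ttr was itself lower in STET_S200, so these signs follow in part from the choice of genes. The part of Ttr-rich tissue was not tested. Cdh11, a cadherin of neurons and mesenchyme, was at 78.6, 75.9 and 78.7 against 83.9, 86.3 and 87.8 CPM (0.15 ± 0.04). Zdhhc2, a palmitoyltransferase that acts on PSD-95, was at 67.0, 65.8 and 65.6 against 72.1, 71.1 and 78.2 CPM (0.16 ± 0.05), and Tmem150c, a membrane protein gene, at 70.2, 67.0 and 67.8 against 73.8, 73.9 and 77.5 CPM (0.13 ± 0.04). These groups were apart, by small steps. Dubr, a long noncoding RNA, was at 9.39, 9.0 and 8.43 against 11.1, 10.1 and 11.95 CPM (0.31 ± 0.08), and Zfp449, a zinc finger gene, at 3.55, 3.11 and 3.39 against 4.28, 4.33 and 4.57 CPM (0.39 ± 0.12). Tm9sf2, an endosomal membrane protein gene, overlapped: 136, 127 and 139 against 167, 154 and 137 CPM (0.19 ± 0.05). Among separated genes with a mean log2 CPM of at least 1, the largest higher differences belonged to Il1a and Tnfaip2, followed by Gm44101 (0.48 ± 0.14), Ly6g6e (0.48 ± 0.20) and Mhrt (0.46 ± 0.15).

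On the lower side the 10 were Marveld2, Mpp7, Ror1, Piezo1, Spint1, Abcc1, Itpripl1, Man2b2, Col18a1 and Efemp1. Marveld2 encodes tricellulin, a protein of epithelial tight junctions. It was at 1.06, 1.72 and 1.26 CPM in STET_S100 and 0.64, 0.82 and 0.41 CPM in STET_S200 (-1.08 ± 0.26), apart in all 3 libraries. Ror1, a Wnt receptor, was at 5.72, 7.37 and 6.08 against 4.99, 5.04 and 4.16 CPM (-0.43 ± 0.12), and Mpp7, a polarity scaffold, at 6.62, 7.92 and 5.70 against 4.49, 5.24 and 3.99 CPM (-0.56 ± 0.15). Against STET_S100 replicate 3 alone Marveld2 differed by -1.01, Ror1 by -0.36 and Mpp7 by -0.32.

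Other lower genes were high mainly in the Ttr-rich libraries. Piezo1, a mechanically gated cation channel, was at 18.8, 22.8 and 16.2 CPM in STET_S100 and 15, 13.8 and 13.2 CPM in STET_S200 (-0.46 ± 0.12). Itpripl1 was at 2.99, 3.71 and 1.49 against 1.40, 1.20 and 1.37 CPM (-1.04 ± 0.29). Spint1, a serine protease inhibitor of epithelia, was at 2.73, 2.27 and 1.63 against 1.33, 1.49 and 1.26 CPM (-0.70 ± 0.20). In each, STET_S100 replicate 3 sat just above the STET_S200 libraries, and against it alone the differences were -0.21, -0.17 and -0.26. Col18a1, a basement membrane collagen gene, had the same order (8.95, 10.9 and 6.88 against 5.47, 6.31 and 6.10 CPM; -0.58 ± 0.16, and -0.21 against replicate 3). The 5 largest lower differences among separated genes with a mean log2 CPM of at least 1 that did not follow Ttr were Prrg4 (-1.95 ± 0.69), Ogn (-1.28 ± 0.51), Frem1 (-1.21 ± 0.45), Fmod (-1.17 ± 0.42) and Scube3 (-1.17 ± 0.45). Prrg4 was at 4.21, 6.46 and 1.30 CPM in STET_S100 and 1.02, 1.22 and 0.82 CPM in STET_S200, and its difference against replicate 3 alone was -0.35.

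**Figure D5:**
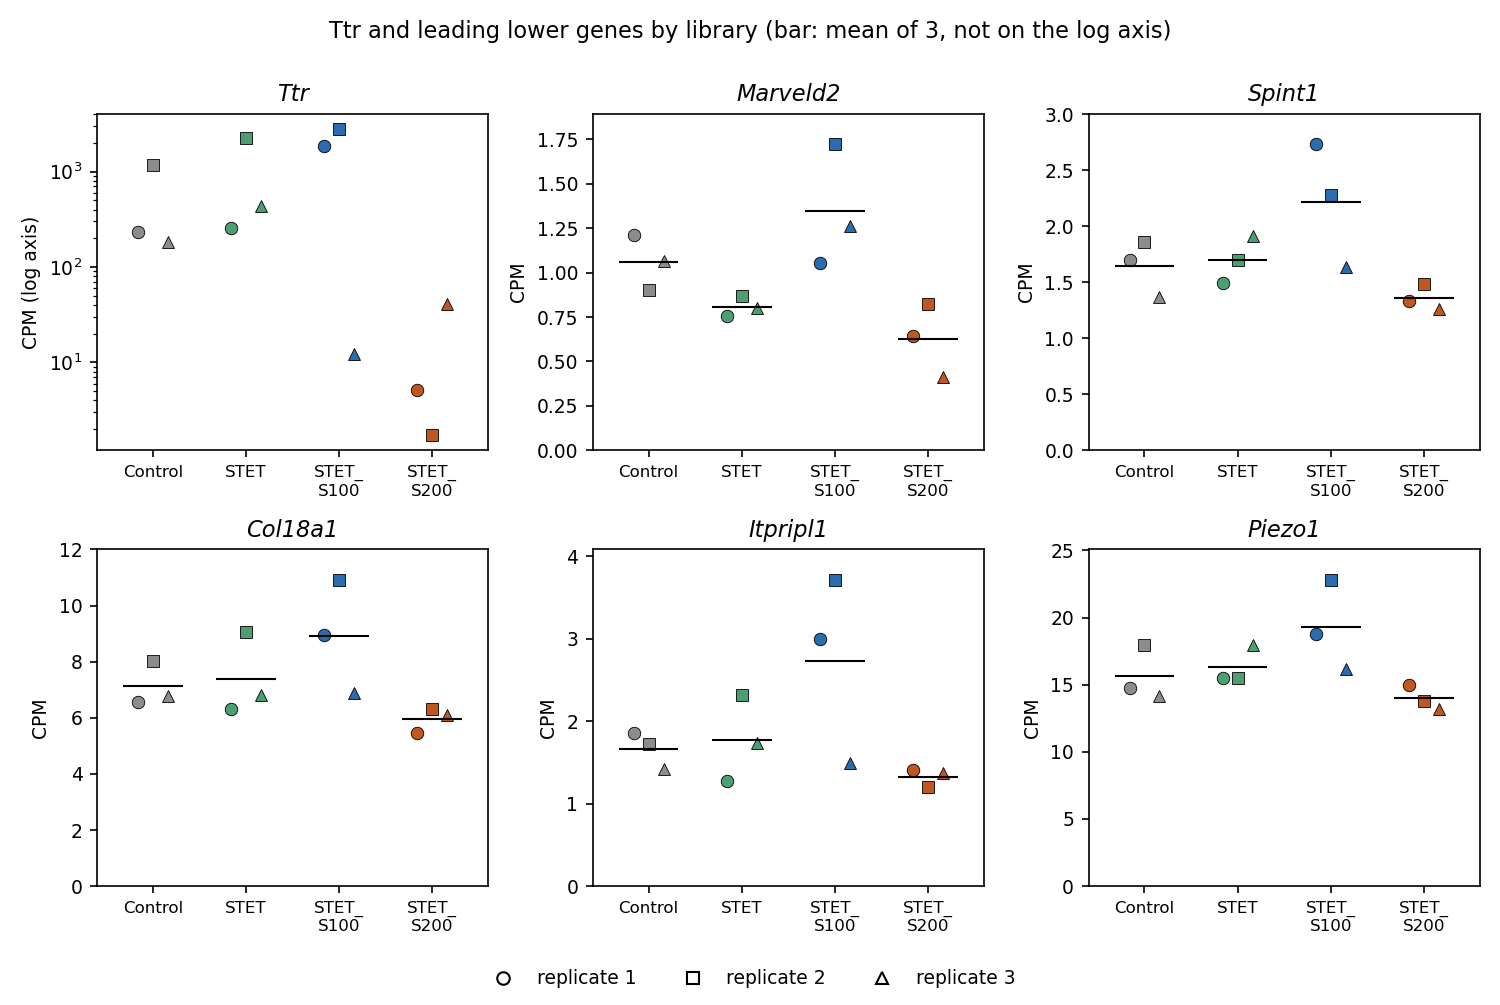
CPM (vertical axis, logarithmic for Ttr) of Ttr and 5 genes with low unadjusted p in the lower direction, in each of the 12 libraries by group; bars are means of 3 and symbols give the replicate number. Among the amygdala-stimulated libraries, STET_S100 replicates 1 and 2 hold the high Ttr values, and all Control and STET libraries lie above the others. For Spint1, Col18a1, Itpripl1 and Piezo1 STET_S100 replicate 3 lies close above the STET_S200 libraries, while Marveld2 stays apart.

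Of the 464 kept genes lower at an unadjusted p under 0.05 in edgeR, the highest of the 6 values was in STET_S100 replicate 2, the library richest in Ttr, for 282 genes, in replicate 1 for 115 and in replicate 3 for 67. Their choice as lower genes places the highest value in STET_S100, and Ttr was itself lower in STET_S200, so these counts describe the genes chosen. Against STET_S100 replicate 3 alone the median difference of the lower genes was -0.22, where it was -0.42 within the libraries with Fabp4 and -0.33 within those without. The part of Ttr-rich tissue in these genes was not tested.

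Marker lists of choroid plexus, meninges and vessels were mostly lower in STET_S200. All 20 choroid plexus and ependymal markers had lower fitted levels in STET_S200, with a median of -4.22; 16 of them followed Ttr and were set aside. Their summed level was 3099, 4545 and 234 CPM in STET_S100 and 229, 198 and 267 CPM in STET_S200, and Kcnj13 and Slc4a5 were at 0 in STET_S200 replicate 2. Meningeal and fibroblast markers had 12 of 15 lower, with a median of -0.42, and 3 members followed Ttr. Of the 15, 7 were separated and lower, against 4.77% of all genes tested. Against STET_S100 replicate 3 alone 5 of 15 were higher, and the median was -0.09. Lum, Mgp and Ptgds were among the separated. Their summed level was 422 to 509 CPM in STET_S100 and 376 to 413 CPM in STET_S200. Endothelial markers had 13 of 16 lower (median -0.09). Against STET_S100 replicate 3 alone 7 of 16 were higher (median -0.05), and over the alternative settings the median ran from -0.10 to -0.006. Of the 16, 3 were separated and lower and 1 higher, against 4.54% and 4.63% of all genes kept. Slc2a1, the glucose transporter of the blood-brain barrier, was separated at 68.2, 70.4 and 70.2 against 61.8, 65.0 and 61.2 CPM (-0.15 ± 0.05), and Flt1 and Ly6c1 were separated in the same direction, Kdr in the opposite one. Mural cell markers were even (6 of 12 higher), with Vtn separated and lower (-0.27 ± 0.09). Transcripts of peripheral tissue such as fat and muscle had 15 of 18 higher and a median of 0.67, and summed to 35.5, 10.3 and 10.4 CPM in STET_S100 and 11.3, 33.5 and 35.5 CPM in STET_S200. The high libraries were those with Fabp4, and with a term for them in the fit the median was -0.06.

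Insulin-like growth factor signalling had 9 of 13 lower and a median of -0.07, with 2 members following Ttr. Igf2 was at 2.57, 3.28 and 0.23 CPM in STET_S100 and 0.36, 0.16 and 0.30 CPM in STET_S200, high in the Ttr-rich libraries alone, and Igfbp2 had the same order. The receptor gene Igf1r (58.8, 62.3 and 59.0 against 57.0, 55.7 and 51.5 CPM; -0.13 ± 0.05) and Irs1, which couples it to downstream kinases (19.7, 22.7 and 21.9 against 19.4, 17.7 and 16.4 CPM; -0.26 ± 0.10), were separated and lower. Igfbp5 overlapped (-0.10 ± 0.06).

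Housekeeping and metabolic groups had medians near 0. Of 80 cytosolic ribosomal protein genes, 37 were higher and 43 lower, the median was -0.003, and 79 were bounded within 1.5-fold. The split differed between sets of libraries: 8 of the 80 were higher within the libraries with Fabp4 (median -0.08) and 74 within those without (0.10). The astrocyte markers were divided the same way, 1 of 16 against 16 of 16, with a median of 0.01 over all 6 libraries. All 73 oxidative phosphorylation subunits were bounded within 1.5-fold, with 46 higher, a median of 0.01, and 9 separated, all higher (9 of 73, against 4.63% of all genes kept). Ndufb9, a complex I subunit, was at 21.0, 20.3 and 18.9 against 22.5, 23.2 and 23.1 CPM (0.19 ± 0.07). Within the libraries with Fabp4, 32 of the 73 were higher, and within those without, 50. Proteasome subunits had 26 of 32 higher with a median of 0.02, and all 32 were bounded within 1.5-fold; Psma1 was the furthest (59.3, 58.2 and 59.9 against 61.8, 64.0 and 67.4 CPM; 0.12 ± 0.04). Cholesterol synthesis genes had 12 of 18 lower, with Lss and Mvd, which encode enzymes of the pathway, separated and lower.

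Stress and hormone programmes showed single genes apart. Of 22 heat shock and unfolded protein response genes, all bounded within 1.5-fold, Hsph1 and Calr were separated and higher and Bag3 and Creld2 separated and lower. That was 2 of 22 in each direction, against 4.63% higher and 4.54% lower of all genes kept. Bag3, a co-chaperone of Hsp70, was at 25, 22.91 and 25.2 against 22.90, 19.5 and 19.3 CPM (-0.24 ± 0.08), so the groups touched. Glucocorticoid response genes had 14 of 18 lower and a median of -0.06, all within 1.5-fold. Against STET_S100 replicate 3 alone 9 of 18 were higher, and the median turned above 0, to at most 0.02, in the libraries without Fabp4, without both Ttr-rich libraries, and with Ttr or the choroid score as covariate. Per1, a clock gene that glucocorticoids and neuronal activity both induce, was at 148, 179 and 167 against 143, 139 and 158 CPM (-0.17 ± 0.06), and STET_S100 replicate 1 lay inside the STET_S200 range. Histone deacetylases and CREB coactivators, regulators of activity-dependent transcription, had 15 of 21 lower, a median of -0.02, and all 21 within 1.5-fold. Hdac4 was separated by a small step (86.4, 85.0 and 87.8 against 84.5, 84.4 and 78.5 CPM). It was the only separated member, 1 of 21, against 4.54% of all genes kept.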

How the data were processed

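The authors deposited 1 table of raw counts per gene for 12 libraries of directional poly(A) RNA. Per the submitters' processing notes reads were handled with HTSeq 0.11.2, STAR 2.7.1a, Trimmomatic 0.39, limma and R 4.0.2. Build, annotation and strand setting: not given in the sources used here. Genes that overlap or share reads with copies are therefore uncertain, and no coordinates are printed. All later values were computed from these counts. Genes passing edgeR's expression filter (19492 of 55471 IDs) were fitted in all 12 libraries with 1 coefficient per group (edgeR 4.0.16 in R 4.3.3, TMM scaling, robust quasi-likelihood test), STET_S200 was contrasted with STET_S100, and p-values were adjusted by Benjamini-Hochberg over all genes tested (threshold 0.05). The fit shares spread over genes and over the 4 groups. Its p-values can thus lie below 0.1, the smallest an exact permutation test gives for 3 libraries against 3. Sharing the 4 groups is not needed for that. The edgeR fit of the 6 compared libraries alone had 804 kept genes at an unadjusted p under 0.05 and a smallest adjusted p of 0.636. CPM use TMM-scaled library totals; ± is the standard error of the log2 difference, and intervals are at 95%. Genes following Ttr (r of log2 CPM, prior count 2, of at least 0.8) were set aside after adjustment. The genes named were the 10 of lowest unadjusted p and the 5 largest separated differences per direction, 17 activity genes, and up to 4 members per list; other separated members of a list, and Nfkb1, Ccl5 and Adipor2, were named after their values were seen. The members and the 50 gene lists were chosen with earlier results of these data known. The procedure was tested on simulated data. Alternatives were DESeq2 1.42.0, limma-voom (limma 3.58.1), other scalings, filters, Ttr rules, covariates, a replicate block and leaving out each library. A few genes of the lists are not reported here by name.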

Additional observations from a re-analysis of the deposited data

How the results depend on the processing

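The count of 0 genes past the threshold held under other scalings, a mean count minimum of 10, a fit of the 6 compared libraries alone, a term for libraries with Fabp4, a choroid score as covariate, other Ttr rules, DESeq2 and limma-voom. Without a filter on low counts edgeR called 66 genes, 10 higher and 56 lower, among 35834 tested; there the prior degrees of freedom became infinite (8.90 with the filter), so a shared trend replaced each gene's own spread. Leaving out single libraries gave 0 to 3 calls, the 3 being Atp10d, Itpripl1 and Paqr5, all lower, without STET_S100 replicate 3, the group's library poor in Ttr (smallest adjusted p 0.0140; up to 0.9996 over the other libraries). Separated genes then numbered 3017 to 4785, since fewer libraries have to be apart, and genes bounded within 1.5-fold 12701 to 12899. Separated genes were 13137 in the libraries without Fabp4 alone and 8631 without the 2 Ttr-rich libraries; this last setting and log2 CPM of Ttr as covariate were chosen after seeing the data, and both gave 0 calls. In the edgeR fit with a replicate block the count was 0 and the smallest adjusted p 0.0760. Deviations of same-numbered libraries from their group means correlated at -0.27, -0.12 and -0.19. These correlations also carry differences in tissue, so they cannot tell whether equal numbers mark the same mice. The labels do not say so either, and the block was kept as an alternative. Of the 57 genes and 50 lists followed over 18 settings, 64 gene values and 67 list medians moved by more than the spread, and 10 gene values passed the threshold in a setting, 9 of them without the filter. Weakly expressed genes were bounded less often: 69.5% of all genes kept, against 95.1% of those with a mean log2 CPM of at least 1, were bounded within 1.5-fold.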
